A study of Mus musculus with 93 samples.

Results

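Expression of 8 genes of the piRNA pathway was examined in mouse embryonic stem cells: Piwil2, Mov10l1, Mael, Tdrkh, Tdrd1, Tdrd9, Asz1 and Ddx4. They were taken by name from the 33924 gene names of each count table, and each name was found in all 12 RNA-seq libraries. The choice was made with earlier results of these data known. Counts and medians of these genes beside those of all genes are therefore descriptions. Of the 93 samples of the series, these 12 libraries were analysed, in 4 groups of 3. All came from R1 cells, an established mouse embryonic stem cell line, grown in serum with leukaemia inhibitory factor. Set 1 held wild type cells and cells with the genotype Ring1b I53A, a point mutation in the subunit through which Polycomb repressive complex 1 ubiquitinates histone H2A. Set 2 held a wild type group of its own and cells of the genotype H1b/c/d/e-QKO, in which the label names 4 genes of linker histone H1, a protein of the DNA between nucleosomes. The labels do not say whether a mutant group is 1 clone, nor whether replicates came from separate cultures. The p-values thus rest on the spread among libraries, which can be purely technical.

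PIWI proteins are Argonaute proteins that carry piRNAs, small RNAs that guide the silencing of transposons in the germline. Precursor transcripts are unwound, cut and trimmed in granules called nuage, which lie between mitochondria in male germ cells. There Tudor domain proteins act as scaffolds, because the domain binds the methylated arginines of PIWI proteins. Genes of this kind are usually active in germ cells, and in somatic and pluripotent cells many of them are kept low by DNA methylation at CpG-rich promoters and by repressors such as E2F6 and MGA. One such repressor, a variant Polycomb complex with PCGF6, MGA, MAX and L3MBTL2, holds a RING1 subunit.

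Promoter sequences are shown first for 4 of the genes, as the genes were followed together and the windows differ in the motifs of those repressors. They were taken from RefSeq (build GRCm38.p6) and run from 250 bases before to 50 bases after the annotated start. Of the 8 genes, 7 had such a window, with 3 starts for Tdrd1 and 9 windows in all. There was none for Piwil2. Mael is shown because its RNA differed most between I53A and wild type, Ddx4 because it was the member that fell in set 2, Tdrd9 because it held the E-box core more than once, alone among these windows, and Tdrkh as a gene with a large difference and none of the motifs. Each runs 5′ to 3′ on the strand of the gene, and capitals mark an E-box core (CACGTG) or an E2F core, both searched on both strands.
Mael, chr1:166238695-166238994, minus strand: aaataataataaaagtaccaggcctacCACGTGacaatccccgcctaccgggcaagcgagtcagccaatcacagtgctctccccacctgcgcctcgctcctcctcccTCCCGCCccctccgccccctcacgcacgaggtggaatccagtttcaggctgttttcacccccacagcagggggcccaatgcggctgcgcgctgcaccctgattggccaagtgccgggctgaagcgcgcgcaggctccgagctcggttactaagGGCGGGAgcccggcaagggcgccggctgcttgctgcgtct
Ddx4, chr13:112652261-112652560, minus strand: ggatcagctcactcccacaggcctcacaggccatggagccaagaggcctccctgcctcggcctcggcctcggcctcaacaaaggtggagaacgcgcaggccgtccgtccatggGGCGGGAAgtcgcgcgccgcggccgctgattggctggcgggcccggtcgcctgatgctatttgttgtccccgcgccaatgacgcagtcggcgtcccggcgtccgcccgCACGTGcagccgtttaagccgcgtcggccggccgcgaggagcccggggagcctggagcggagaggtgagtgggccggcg
Tdrd9, chr12:111971309-111971608, plus strand: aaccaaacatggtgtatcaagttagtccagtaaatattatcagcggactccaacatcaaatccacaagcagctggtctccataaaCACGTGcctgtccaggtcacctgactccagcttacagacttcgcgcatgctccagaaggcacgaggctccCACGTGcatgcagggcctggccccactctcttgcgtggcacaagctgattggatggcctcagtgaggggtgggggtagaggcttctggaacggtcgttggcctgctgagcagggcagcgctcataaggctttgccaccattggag
Tdrkh, chr3:94412994-94413293, plus strand: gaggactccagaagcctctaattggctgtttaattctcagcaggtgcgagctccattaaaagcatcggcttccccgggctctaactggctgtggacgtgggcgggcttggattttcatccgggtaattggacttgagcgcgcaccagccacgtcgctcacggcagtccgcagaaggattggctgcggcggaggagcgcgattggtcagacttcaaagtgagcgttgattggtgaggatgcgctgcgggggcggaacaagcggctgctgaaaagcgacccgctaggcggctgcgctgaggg

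CACGTG, the E-box core bound by MAX partners such as MGA, was found in 5 of the 7 genes. In Mael it began 223 bases before the start and in Mov10l1 246 bases before. Tdrd9 held it at 165 and at 95 bases before its start, and Ddx4 at 29. In Tdrd1 a single match lay 11 bases before the first annotated start, which is 77 bases before the second, and the window of the third start held none. Tdrkh and Asz1 held none. Over all 32851 windows of the table, 7.15% held CACGTG and 0.594% held it 2 or more times. With only the first window of each gene name, 7.24% of 27025 held it. Among windows with a CpG observed-to-expected ratio of at least 0.5, the share was 10.9%. Tdrd9, one of the 5 genes, was below that ratio.

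The E2F cores TCCCGCC and GCGGGAA were found in Mael and Ddx4 and in none of the other 5 genes with a window. Mael held TCCCGCC 143 bases before the start and, on the opposite strand, 11 bases after it. In Ddx4 the capitals from 137 bases before the start hold TCCCGCC on the opposite strand and, overlapping it, GCGGGAA from 136 bases before. Over all windows, 13.3% held either core. Ddx4 held 38 CpG sites, Tdrkh 25, Mael 24, Mov10l1 20, Asz1 17 and Tdrd9 10, beside a median of 7 over all windows. Tdrd1 held 20, 25 and 3 at its 3 starts. The observed-to-expected ratio was below 0.5 for Tdrd9 (0.430) and for the third Tdrd1 window (0.216). These matches describe letters in the windows and no factor binding was analysed here.

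**Figure D1:**
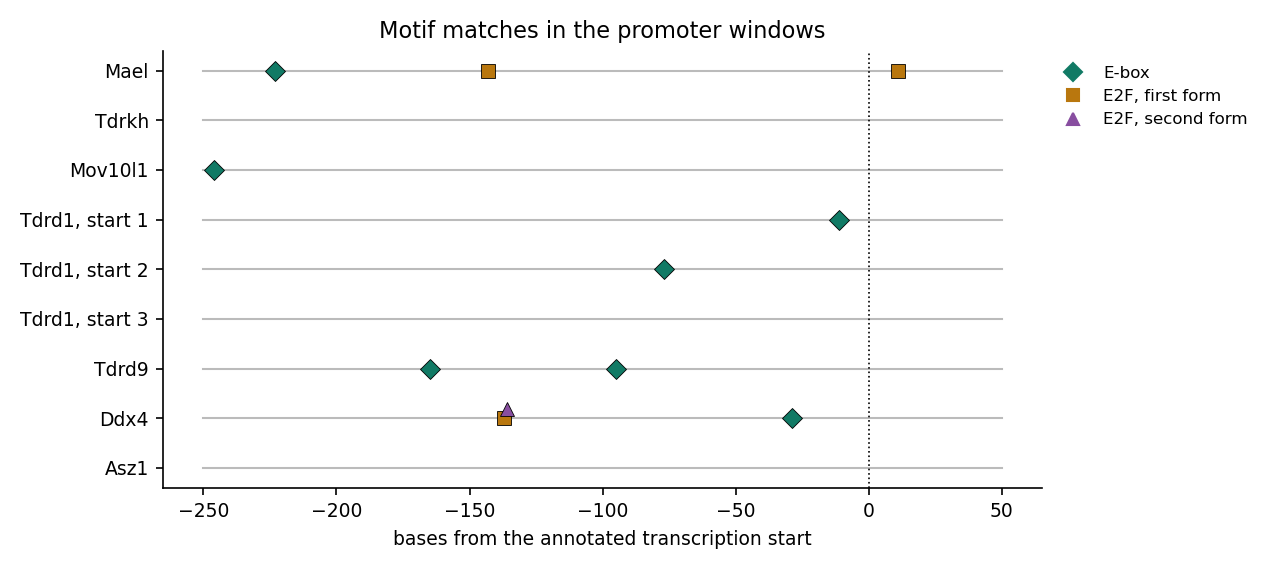
Motif matches in the 9 promoter windows of 7 genes. The x axis is the distance in bases of the first base of a match from the annotated start, the first form of the E2F core is TCCCGCC and the second GCGGGAA. Matches of CACGTG (E-box) lie in 5 genes, and Tdrkh and Asz1 hold no match.

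The libraries held 12585621 to 23378930 counts. Replicate 3 of both set 1 groups stood apart from replicates 1 and 2: the chi-square per degree of freedom of these pairs was 21.2 to 27.3, against 2.19 to 4.41 for the other pairs of replicates. The calls of set 1 are therefore also given without replicate 3. Counts cannot show a point mutation, but Rnf2, the gene of Ring1b, was lower in I53A (81.0 to 93.5 CPM, counts scaled to a common library size) than in wild type (166 to 182 CPM). In set 2, Hist1h1b had 4, 9 and 2 wild type counts beside 62, 53 and 72 under the QKO label, and Hist1h1c 143, 173 and 205 against 174, 129 and 202. Hist1h1d (10, 3 and 14 against 15, 7 and 5) and Hist1h1e (6, 0 and 2 against 12, 3 and 7) were near the limit of detection. So was Hist1h1b in wild type, and from so few wild type counts a fall could hardly have been seen. These counts do not show the loss that the label names, and for such genes they cannot test it. The labels do not give which bases were deleted, so the group is called by its label throughout. All 7 stem cell markers in the tables (Pou5f1, Nanog, Sox2, Zfp42, Esrrb, Klf4 and Tdgf1) were present in all groups, with group means of 134 CPM or more. In I53A, 4 of them were lower (Nanog, Sox2, Zfp42 and Esrrb) and 1 higher (Tdgf1), and their sum was 4701 to 5255 CPM in wild type and 3872 to 4386 CPM in I53A. Of all genes tested in set 1, 17.4% were called lower and 18.1% higher (edgeR adjusted p under 0.05). In set 2, 5 were higher and 2 lower, with sums of 5734 to 5818 and 6821 to 6910 CPM. There 57.7% of all genes tested were called, 28.7% higher and 29.0% lower, so calls among the markers were common for the set.

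At the mm9 build of the counts, Piwil2 lies on chromosome 14 from 70772287 to 70828901 (minus strand) and Mov10l1 on chromosome 15 from 88813339 to 88885582 (plus). Mael lies on chromosome 1 from 168131516 to 168168875 (minus) and Tdrkh on chromosome 3 from 94217218 to 94236555 (plus). Tdrd1 spans 56900699 to 56944502 of chromosome 19 (plus), and Tdrd9 113209770 to 113307065 of chromosome 12 (plus). Asz1 spans 18000964 to 18059061 of chromosome 6 (minus), and Ddx4 113388541 to 113442518 of chromosome 13 (minus). Counting used exons only, from 1546 bases in Mael to 5443 in Tdrd1, and no exon base of the 8 genes is shared with another annotated gene. The genes thus lie on 8 different chromosomes.

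Per kilobase of exon, the scale on which genes can be compared, wild type cells of set 1 held most RNA of Ddx4 (7.40 CPM per kb), Piwil2 (6.99) and Mov10l1 (6.77), and these neighbours overlapped between libraries. Mael followed at 5.19 and Tdrkh at 1.67. Tdrd1 (0.363), Tdrd9 (0.230) and Asz1 (0.211) were lowest, and the last 2 overlapped. In I53A cells Mael was the highest at 40.4 CPM per kb, above Ddx4 (20.9), Piwil2 (19.4) and Mov10l1 (18.2), which overlapped as neighbours. Tdrkh (9.62), Tdrd1 (1.17), Tdrd9 (0.727) and Asz1 (0.548) kept their order below these, and the last 2 overlapped. The share of Mael in the summed level per kb of the 8 genes was 18.0% in wild type and 36.4% in I53A.

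In wild type cells of set 2, Ddx4 led at 17.8 CPM per kb, and Mael (7.90), Mov10l1 (7.28) and Piwil2 (7.06) overlapped as neighbours below it. In the libraries labelled QKO the levels per kb were 12.6 for Ddx4, 11.3 for Mael, 9.13 for Mov10l1 and 8.71 for Piwil2, of which the last 2 overlapped. Tdrkh (3.28 in wild type, 4.81 labelled QKO), Tdrd1 (1.08 and 1.45) and Tdrd9 (0.321 and 0.523) followed in both groups. The share of Ddx4 in the sum of the 8 genes was 39.8% in wild type and 26.0% in the libraries labelled QKO.

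**Figure D2:**
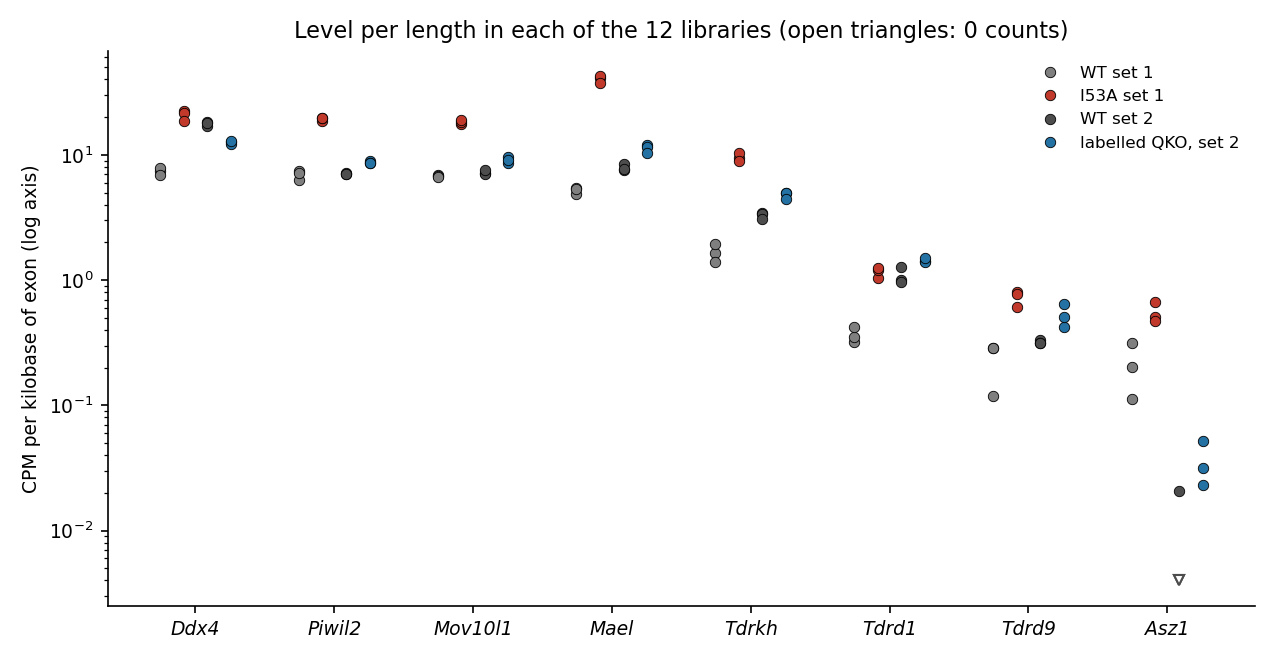
Level of the 8 genes per kilobase of exon in each of the 12 libraries, on a log axis in CPM per kb. Each point is 1 library, and the open triangle stands for the 2 set 2 wild type libraries without an Asz1 count. Mael lies below Ddx4, Piwil2 and Mov10l1 in wild type of set 1 and above them in I53A.

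In set 1, the RNA of each of the 8 genes was higher in I53A than in wild type, and no group overlapped. The increases ran from 2.56-fold for Asz1 to 7.70-fold for Mael. In all, 18.1% of the 15536 genes tested were called higher (adjusted p under 0.05, edgeR's quasi-likelihood test), 8.41% were called at least 2-fold higher, and 49.2% had groups that did not overlap. Of the 8 genes, 7 would have passed the filter on low counts from wild type alone. Asz1 passed it only through I53A, so its difference cannot be read as one that could have gone either way. The median log2 difference was 1.54 over the 8 genes and -0.0010 over all genes tested. As the genes were chosen with earlier results known, these comparisons with all genes only describe the data. In bulk RNA, a change in the number of cells that express a gene and a change in RNA per cell cannot be told apart.

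Piwil2 encodes the PIWI protein MILI, which binds piRNAs. Its level was 36.5, 31.1 and 35.4 CPM in replicates 1 to 3 of wild type and 92.3, 97.1 and 96.5 CPM in I53A. Every I53A library lay above every wild type library, with a log2 fold change of 1.46 ± 0.09 (SE, n = 3 per group), and Piwil2 was called higher by edgeR (adjusted p = 1.76e-05). Mov10l1, the RNA helicase that engages piRNA precursors, was at 28.9, 28.6 and 28.0 CPM in wild type and 73.8, 77.2 and 79.7 CPM in I53A. Its log2 fold change was 1.41 ± 0.08 (edgeR adjusted p = 1.01e-05). The groups were tight and far apart for both genes.

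Mael, a nuage protein with an HMG-box-like domain that transposon silencing requires, had 8.38, 7.50 and 8.20 CPM in wild type. In I53A it had 63.4, 65.9 and 58.1 CPM. The lowest I53A library was thus several times above the highest wild type library, and the log2 fold change was 2.95 ± 0.10 (edgeR adjusted p = 1.04e-06). Of all genes tested, 98.4% had a smaller log2 fold change than Mael. The promoter sequence printed for Mael holds 1 CACGTG and 2 TCCCGCC matches.

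Among the Tudor domain genes, Tdrkh showed the largest difference. It encodes a mitochondrial Tudor protein that takes part in trimming piRNA 3′ ends. Wild type libraries had 6.31, 7.45 and 5.35 CPM and I53A libraries 36.2, 39.4 and 34.3 CPM, a 5.66-fold difference (log2 2.50 ± 0.13, edgeR adjusted p = 9.22e-06). Tdrd1, a scaffold with several Tudor domains that binds MILI, had 1.75, 1.90 and 2.28 CPM in wild type and 5.70, 6.52 and 6.86 CPM in I53A. Its log2 fold change was 1.67 ± 0.20 (edgeR adjusted p = 0.000441). Both genes were low in wild type, and Tdrkh and Tdrd1 stayed apart between groups in every library.

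Tdrd9, which combines a helicase with a Tudor domain and works with the PIWI protein of Piwil4, was close to the limit of detection. It had 26, 26 and 8 counts in wild type (1.38, 1.37 and 0.570 CPM) and 73, 54 and 50 in I53A (3.85, 2.91 and 3.73 CPM). Replicate 3 of wild type was the lowest of the 6 libraries. The log2 fold change was 1.604 ± 0.33 (edgeR adjusted p = 0.00656).

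Asz1, an ankyrin repeat protein anchored on mitochondria that holds nuage together, had the fewest counts. There were 6, 17 and 8 in wild type (0.318, 0.898 and 0.570 CPM) and 27, 35 and 18 in I53A (1.43, 1.89 and 1.34 CPM). The highest wild type and the lowest I53A library stood close, at 0.898 and 1.34 CPM. The log2 fold change was 1.36 ± 0.41 (edgeR adjusted p = 0.0335), and it passed the threshold by little. Without replicate 1 of wild type the adjusted p was 0.108, without its replicate 3 it was 0.0575, and without replicate 1 or replicate 2 of I53A it was 0.0852 or 0.127 (edgeR).

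Ddx4 is the DEAD-box helicase of nuage known as Vasa and a common marker of germ cells. It had 21.0, 22.6 and 19.6 CPM in wild type and 63.5, 61.9 and 53.5 CPM in I53A. The increase was 2.80-fold (log2 1.48 ± 0.10, edgeR adjusted p = 2.96e-05). Replicate 3 was the lowest library of each group for Ddx4, as it was for Tdrkh.

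Without replicate 3 of both groups, all 8 genes were again called higher, with log2 fold changes from 1.28 ± 0.32 for Tdrd9 to 3.01 ± 0.10 for Mael. In that comparison 26.7% of 15706 genes were called higher. With the replicate number as a block, the 8 genes were called higher as well, and over all genes 56.6% were called, with 28.1% higher. Asz1 passed the filter on low counts of the main fit only through I53A. In neither count can it be read as a gene that could have gone either way. The replicate 3 libraries, 1 per group, allow no test of their own, and for each of the 8 genes the I53A value lay above the wild type value.

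**Figure D3:**
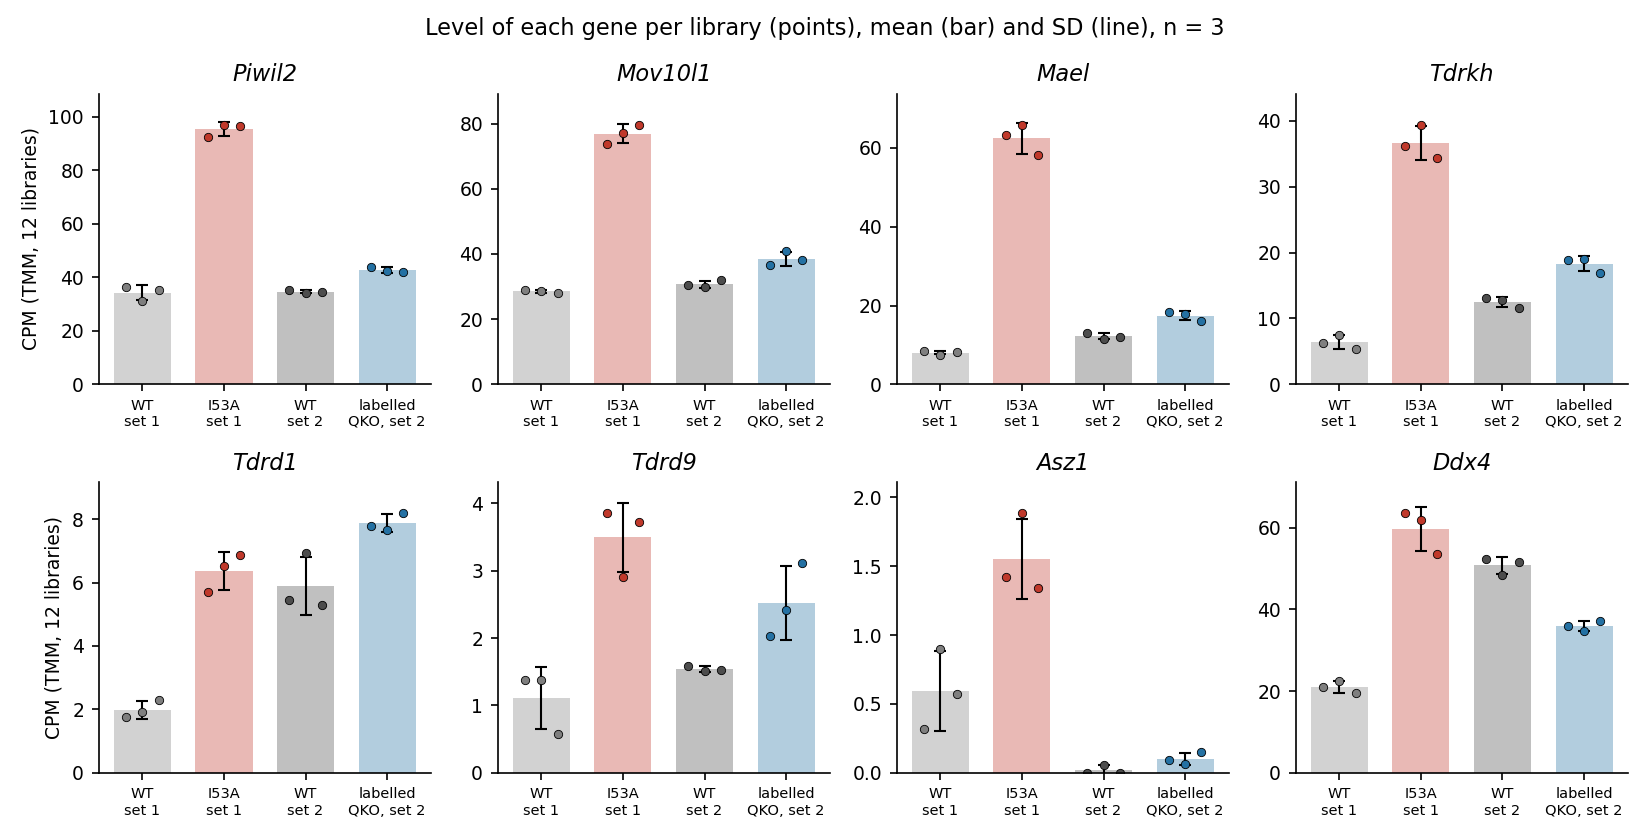
CPM (scaled by TMM over the 12 libraries) of each gene by group. Points are libraries, bars the mean and lines the SD of 3 libraries. All I53A points lie above the wild type points of set 1, and Ddx4 is the gene whose points are lower in the libraries labelled QKO than in their wild type.

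In set 2, differences were smaller and 1 gene went the other way. Piwil2, Mov10l1, Mael, Tdrkh, Tdrd1 and Tdrd9 were called higher in the libraries labelled QKO, Ddx4 was called lower, and Asz1 had too few counts to be tested. Of the 15439 genes tested in this set, 57.7% were called, 28.7% higher and 29.0% lower, so a call in either direction was common, and 61.4% of genes had groups that did not overlap. The median log2 difference of the 7 tested genes was 0.43, beside -0.0033 over all genes.

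Mael had 13.0, 11.6 and 12.01 CPM in wild type and 18.4, 17.7 and 16.1 CPM in the libraries labelled QKO (log2 0.52 ± 0.10, edgeR adjusted p = 1.68e-05). Tdrkh had 13.0, 12.8 and 11.6 CPM and 18.9, 19.0 and 17.0 CPM (log2 0.56 ± 0.10, edgeR adjusted p = 3.10e-06). For both genes the groups did not overlap. They were the genes with the largest increases in set 1.

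Mov10l1 went from 30.4, 29.7 and 31.9 CPM to 36.6, 40.8 and 38.1 CPM, a log2 fold change of 0.33 ± 0.07 (edgeR adjusted p = 7.47e-05). Piwil2 went from 35.2, 34.3 and 34.6 CPM to 44.0, 42.3 and 42.1 CPM, with 0.31 ± 0.07 (edgeR adjusted p = 6.44e-05). The groups did not overlap for the helicase or for the PIWI gene, whose differences were the 2 smallest increases of the set.

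Tdrd1 had 5.44, 6.94 and 5.30 CPM in wild type and 7.78, 7.66 and 8.19 CPM in the libraries labelled QKO (log2 0.43 ± 0.14, edgeR adjusted p = 0.00851). Without replicate 3 of wild type its adjusted p was 0.0529. Tdrd9 had 1.59, 1.52 and 1.52 CPM against 2.02, 2.42 and 3.11 CPM (log2 0.71 ± 0.26, edgeR adjusted p = 0.017). Its spread was in the libraries labelled QKO, where replicate 3 was the highest. Without that library the adjusted p of Tdrd9 was 0.148, and with the spread taken from all 12 libraries it was 0.0603 (edgeR).

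Ddx4 fell in the libraries labelled QKO. Its level was 52.4, 48.3 and 51.5 CPM in wild type and 35.8, 34.8 and 37.1 CPM in the libraries labelled QKO, 0.711 of wild type. The groups did not overlap, and the log2 fold change was -0.49 ± 0.06 (edgeR adjusted p = 3.35e-09). Over the alternatives run it stayed between -0.54 and -0.47. Genes called higher in set 1 and lower in set 2 made up 3.43% of the 14589 genes tested in both, and genes called higher in both sets, as the other 6 tested members were, 7.55%.

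Asz1 had 0, 1 and 0 counts in wild type of set 2 and 2, 1 and 3 in the libraries labelled QKO. The ratio of the sums relative to the library totals was 5.71, with an exact 95% counting interval from 0.693 to 263. A difference was not detectable at this depth.

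The effects of the 2 genotypes, each taken against the wild type of its own set, were then compared directly in a fit over all 12 libraries. The I53A effect was larger than that of the QKO label for 6 of the 8 genes, while 18.0% of the 16501 genes tested were called in that direction and 36.1% in either. On the log2 scale the difference was 2.45 ± 0.13 for Mael (edgeR adjusted p = 6.47e-09), 2.00 ± 0.12 for Ddx4 (1.46e-08) and 1.96 ± 0.16 for Tdrkh (4.31e-07). It was smaller for Tdrd1 (1.27 ± 0.23), Piwil2 (1.17 ± 0.10) and Mov10l1 (1.10 ± 0.10). For Tdrd9 the difference was 0.91 ± 0.41 (edgeR adjusted p = 0.098) and for Asz1 -0.74 ± 1.02 (0.618), neither of which was called. The sets differ in more than the genotype, as described for their wild type groups below.

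**Figure D4:**
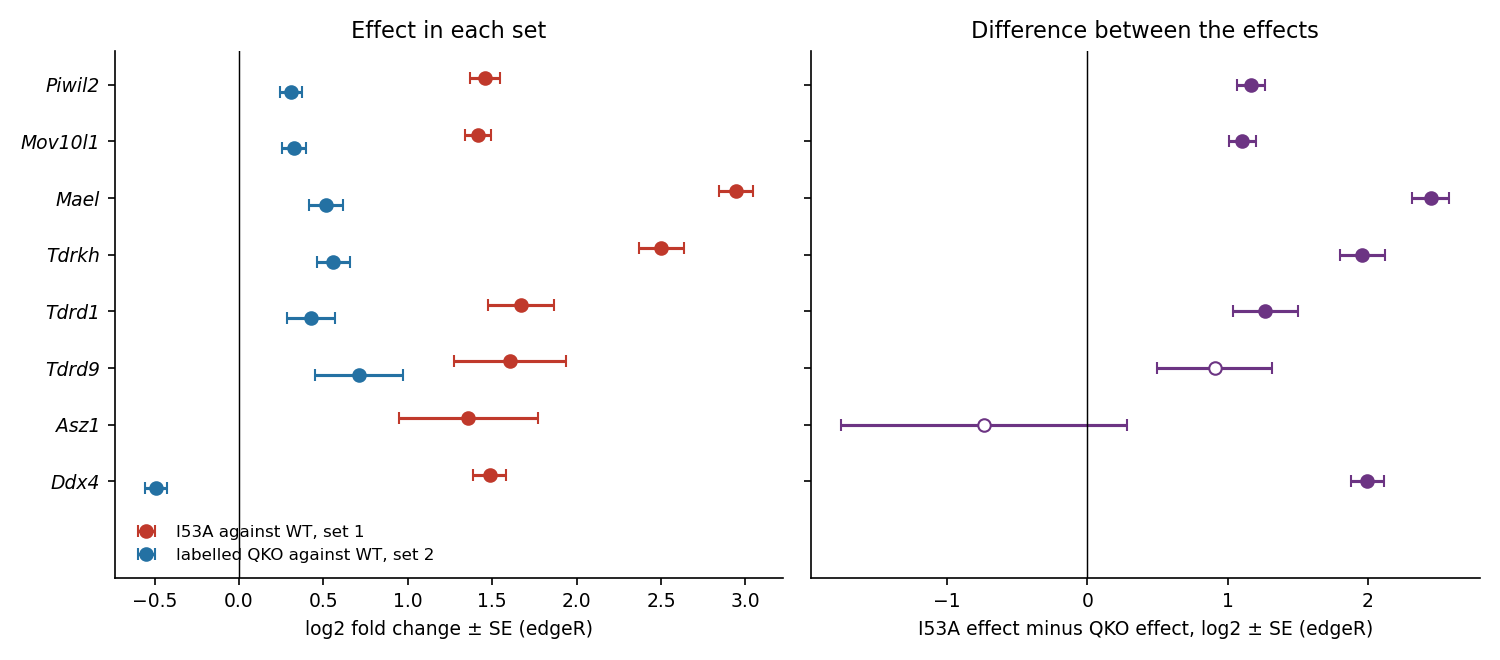
Effects on the 8 genes as log2 fold change ± SE. The left panel shows each genotype against the wild type of its own set, without Asz1 in set 2, and the right panel the I53A effect minus that of the QKO label, where open symbols are not called. Ddx4 is the gene with effects of opposite sign, 1.48 and -0.49.

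The wild type groups of the sets held the 8 genes at different levels. Set 2 had 2.98 times the Tdrd1 level of set 1, 2.41 times that of Ddx4, 1.96 times that of Tdrkh and 1.52 times that of Mael, without overlap. Piwil2 was at 34.3 ± 2.88 CPM in set 1 and 34.7 ± 0.452 CPM in set 2 (SD, n = 3), which overlapped, and Mov10l1 at 28.5 ± 0.446 and 30.7 ± 1.09 CPM. Scaled by library totals alone, Mov10l1 stood in the other order, at 30.1 and 28.7 CPM. Asz1 had 31 counts over the wild type libraries of set 1 and 1 over those of set 2. Wild type groups that did not overlap were found for 62.6% of 16501 genes, and for 22.6% the means were also at least 2-fold apart. Per the file headers, the alignments of set 1 were named for TopHat and unique alignments and those of set 2 were not, so culture and counting cannot be told apart here.

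The levels of Ddx4 in I53A (59.6 CPM) and in wild type of set 2 (50.7 CPM) were nearer to each other than those of the 2 wild type groups. The same held for Tdrd1, at 6.36 CPM in I53A and 5.89 CPM in wild type of set 2, and for none of the other members. Mael, for one, had 62.5 CPM in I53A, beside 12.2 CPM in wild type of set 2 and 8.03 CPM in wild type of set 1. Summed over the 8 genes, the level was 102 ± 2.37 CPM in wild type and 342 ± 9.64 CPM in I53A of set 1. In set 2 it was 148 ± 2.92 CPM in wild type and 163 ± 1.58 CPM in the libraries labelled QKO (SD, n = 3).

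Of 27 other genes of the piRNA pathway, 24 were in the tables. In set 1, where 18.1% of all genes tested were called higher and 17.4% lower, 21 of the 24 were tested. Of these, 11 were higher in I53A and 5 lower, with a median log2 difference of 0.40. They included 4921515J06Rik (RefSeq Henmt1, the methyltransferase of piRNA 3′ ends), at 0.459 ± 0.213 CPM in wild type and 3.04 ± 0.901 CPM in I53A (log2 2.64). Like Asz1, it passed the filter on low counts only through I53A, while the other 20 tested would have passed from wild type alone. Its exons share 14.2% of their length with the gene Gm9857 on the other strand, which had at most 1 count in a library. Gtsf1, a zinc finger cofactor of PIWI proteins, had a log2 difference of 1.54 and the Tudor domain genes Stk31 and Tdrd7 had 1.49 and 1.43. Stk31 had 13.5 ± 0.607 CPM in wild type and 38.4 ± 0.174 CPM in I53A. The 5 genes called lower, chosen for naming after their values were seen, were Mov10 (log2 -1.16), Morc1 (-1.01), Pnldc1 (-0.92), Gtsf1l (-0.78) and Tdrd12 (-0.75). Mov10 is the widely expressed relative of Mov10l1, and the 2 helicase genes moved in opposite directions.

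In set 2, where 28.7% of all genes tested were called higher and 29.0% lower, 22 of these genes were tested. In the libraries labelled QKO, 16 were higher and 5 lower, with a median of 0.92. The 5 lower did not exceed the share over all genes. From wild type alone, 20 would have passed the filter, without 4921515J06Rik and Tdrd6. The PIWI gene Piwil1 had 1.67 ± 0.234 CPM in wild type and 6.49 ± 0.814 CPM in the libraries labelled QKO (log2 1.97). Gtsf1l (8.24 ± 0.525 and 26.9 ± 1.28 CPM) and Gpat2, a mitochondrial acyltransferase-like protein of the pathway (4.56 ± 0.953 and 14.9 ± 1.43 CPM), both had a log2 difference of 1.71. Fkbp6, a cochaperone in piRNA formation, was the gene that fell most: 1.83, 1.63 and 2.30 CPM in wild type and 0.315, 0 and 0.148 CPM in the libraries labelled QKO (log2 -3.44 ± 0.46). BC048502 had no count in any wild type library of set 2 and was not tested. The number called lower was 3 without replicate 3 of the libraries labelled QKO and also with the spread from all 12 libraries.

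The log2 fold change in I53A minus that of the QKO label was called for 12 of 22 of these genes, 4 above 0 and 8 below. Over all genes tested, 18.0% were called above 0 and 18.1% below, and the 4 above 0 are near that share. A sign of this difference does not say which effect was larger in size. Dnmt3l (0.33 in set 1 and 1.70 in set 2), Morc1 (-1.01 and 0.93) and Mov10 (-1.16 and -0.68), chosen after their values were seen, were among the 8 below 0. For the 8 genes followed here, 6 were called above 0 and none was called below. Tex19.1, chosen in the same way, had 1.37 and 1.35, and its difference of 0.04 ± 0.12 was not called.

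Of 12 other Tudor domain genes, 11 were in the tables, and some are also on the list above. In set 1, where 18.1% of all genes were called higher and 17.4% lower, 6 of 10 tested were higher and 1 lower. Their median was 0.33. Besides Stk31 and Tdrd7, Tdrd5 was higher (4.84 ± 0.982 CPM in wild type and 9.54 ± 0.546 CPM in I53A, log2 0.96), and Tdrd12 was the one lower (27.4 ± 2.08 and 16.5 ± 1.86 CPM). In set 2, 28.7% of all genes were called higher and 29.0% lower. Of the Tudor domain genes, 10 of 11 were higher and 1 lower, with a median of 0.79. They included Tdrd7 (log2 1.08), Stk31 (0.91) and Akap1, a mitochondrial RNA-binding anchor (0.91). Tdrd6 (1.596) passed the filter only through the libraries labelled QKO, with 18 counts in wild type and 60 there, and the other 10 would have passed from wild type alone. The one lower was Rnf17 (log2 -0.14), named after its value was seen, and in set 1 it was called higher (0.71). Its call in set 2 was lost without replicate 1 of wild type or replicate 3 of the libraries labelled QKO. It was also lost in DESeq2 and with all 12 libraries in the fit.

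**Figure D5:**
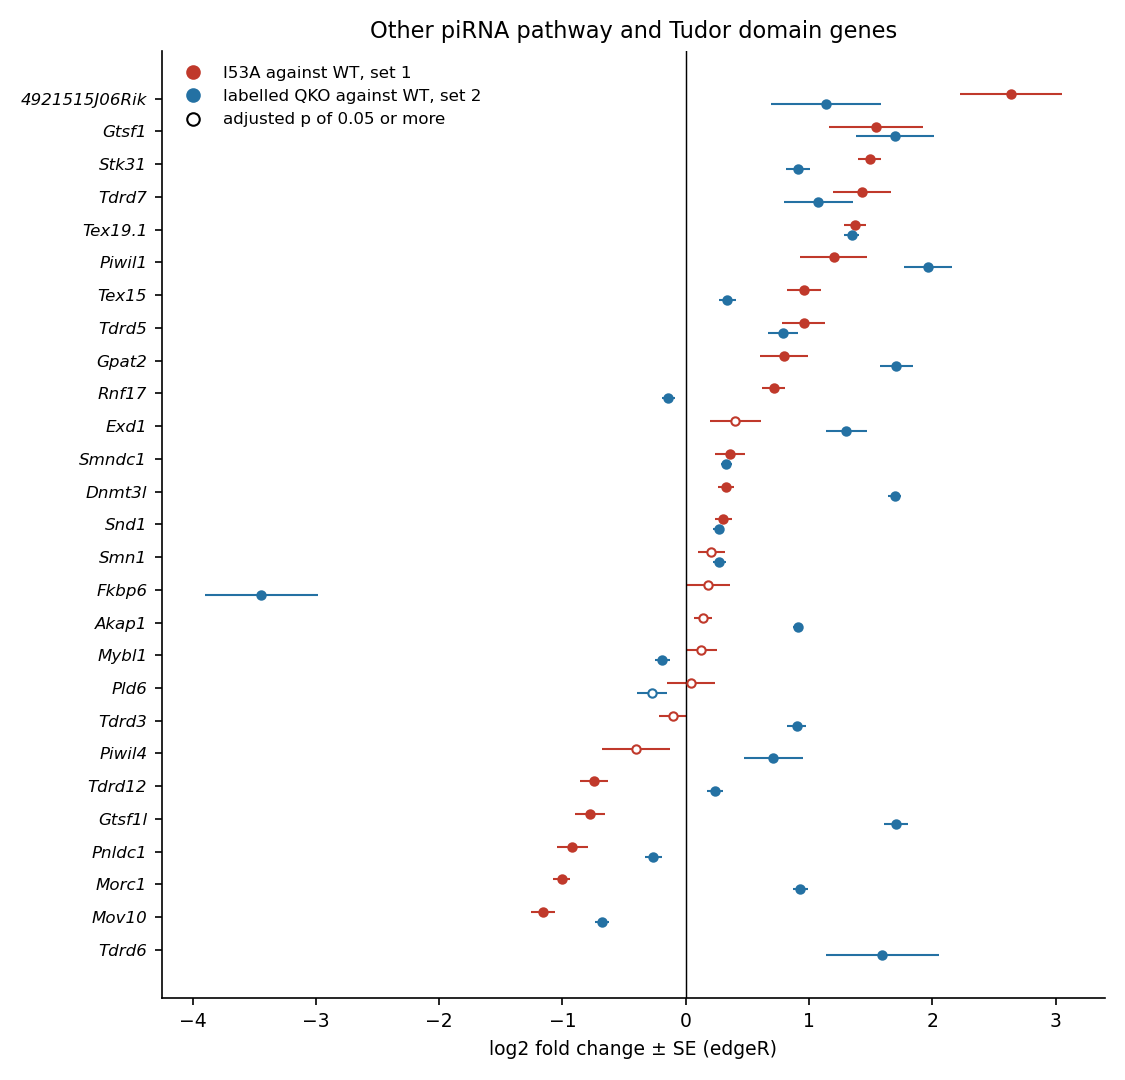
Log2 fold change ± SE of the other piRNA pathway and Tudor domain genes that were tested in at least 1 set, for I53A against wild type in set 1 and for the QKO label against wild type in set 2. Open symbols were not called. Of the genes called in both sets, Morc1, Gtsf1l and Tdrd12 lie below 0 in set 1 and above 0 in set 2, and Rnf17 the other way. Some genes not called in both sets also lie on opposite sides of 0, and Fkbp6 is far below 0 in set 2.

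Of 17 factors known to keep germline genes silent, all tested in set 1, 4 were higher and 6 lower in I53A, with a median of -0.04. Over all genes, 18.1% were called higher and 17.4% lower, and a count of 4 that falls to 2 without 1 library is not read as a change of the list. E2f6, a repressor of the E2F family, rose from 20.3 ± 1.13 to 43.3 ± 0.576 CPM (log2 1.08). Mga fell from 505 ± 62.6 to 296 ± 51.7 CPM (-0.79), and the E2F partner Tfdp1 (-0.67) and the DNA methylation factor Uhrf1 (-0.50) fell too. Without replicate 3 of both groups, 11 of the other piRNA genes were higher and 5 lower, 8 of the Tudor genes higher and 1 lower, and 5 of these factors higher and 6 lower. In that comparison, 26.7% of all genes were called higher and 26.4% lower. Without replicate 1 or 2 of I53A, 2 of the factors were higher and 3 lower, and without replicate 1 or 2 of wild type 2 were higher.

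In set 2, 6 of the 17 factors were higher and 7 lower, with a median of -0.05, where 28.7% of all genes were called higher and 29.0% lower. The DNA methyltransferase gene Dnmt3a was higher (147 ± 2.85 and 233 ± 1.17 CPM, log2 0.67), and Tfdp1 (-0.54), E2f6 (-0.50) and Uhrf1 (-0.47) were lower. E2f6 went from 37.3 ± 1.34 to 26.4 ± 1.11 CPM. E2f6 was thus higher in I53A and lower in the libraries labelled QKO, and its effects differed by 1.595 ± 0.10 on the log2 scale (edgeR adjusted p = 4.26e-08). With the spread from all 12 libraries, 1 of the factors was higher in set 2.

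Markers of other cell types differed along with the 8 genes, and their part in the result was not tested. The share of all genes called was 18.1% higher and 17.4% lower. The 12 primitive endoderm markers summed to 176 to 185 CPM in wild type and 2412 to 2524 CPM in I53A. Each was tested and called higher, but 8 of the 12 would have passed the filter from wild type alone, and the others entered through I53A. Of 12 markers of 2-cell-like cells in the tables, 11 were tested and higher, 10 of which would have passed from wild type alone, with sums of 70.3 to 99.9 and 818 to 1158 CPM. Tdpoz1 was at 0 in wild type. Of 7 fibroblast markers tested, 5 of which would have passed from wild type alone, 5 were higher (82.5 to 118 and 107 to 126 CPM), with Dcn and Postn at 0 in wild type and Lum at 0 in I53A. Of 16 meiotic genes tested, 13 of which would have passed from wild type alone, 8 were higher and 2 lower (322 to 352 and 376 to 403 CPM), and Spo11 was at 0 in wild type. Of 9 primordial germ cell markers tested, 5 were lower and 1 (Dazl, named after its value was seen) higher, and their sum was 516 to 542 CPM in wild type and 294 to 310 CPM in I53A. Ifitm1, named in the same way, held the largest part of that fall, from 220 ± 33.1 to 35.7 ± 6.63 CPM (SD). The 1 gonadal somatic marker tested was not called (sums of 10.2 to 13.1 and 8.73 to 10.6 CPM).

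In set 2, markers of 2-cell-like cells summed to 1.18 to 2.20 CPM in wild type and 64.3 to 69.96 CPM in the libraries labelled QKO, with Tdpoz1 and Tdpoz4 at 0 in wild type. The 8 that were tested all passed the filter only through the libraries labelled QKO, so their calls carry no information on direction. Over all genes of the set, 28.7% were called higher and 29.0% lower. For primitive endoderm, 6 of 10 tested were higher, and 9 would have passed from wild type alone (151 to 168 and 191 to 197 CPM). Fibroblast markers were higher in 4 of 6, with 5 passing from wild type alone (127 to 137 and 241 to 253 CPM), with Col3a1, Dcn, Lum, Postn and Twist2 at 0 in wild type. Most of that sum was Vim, named after its values were seen. It had 106 ± 4.79 CPM in wild type and 203 ± 6.75 CPM in the libraries labelled QKO (SD). Of 16 meiotic genes, 14 of which would have passed from wild type alone, 9 were higher and 3 lower (375 to 396 and 474 to 488 CPM), and of 9 primordial germ cell markers 2 were higher and 5 lower (355 to 359 and 292 to 299 CPM). Gonadal somatic markers summed to 8.62 to 8.83 and 12.3 to 13.2 CPM, with the 1 tested called higher. Their part in the result was not tested either.

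The genes most like each of the 8 were found among 16501 genes by the distance between log2(CPM + 1) profiles over the 12 libraries, each centred on its mean, where a smaller distance is more alike. Mov10l1 and Piwil2 were each other's nearest gene, at 0.33. Next came Adrbk2 for Mov10l1 (0.33) and Bmp2 for Piwil2 (0.35). Bmp2 was near the limit of detection, at 0.018 CPM in wild type and 2.01 CPM in I53A of set 1. In set 2 it had 0.053 CPM in wild type and 0.326 CPM under the QKO label. The 1 CPM added before the log flattens profiles at such levels, so a small distance there is no likeness in fold change. Mael was nearest to Pramef8 (0.69) and Flrt3 (0.76), and Tdrkh to Lrrk1 (0.79) and Pramel1 (0.86). Ddx4 was nearest to Fam176a (0.38), which had 2.32, 8.74, 6.97 and 4.73 CPM in wild type and I53A of set 1 and wild type and the QKO label of set 2, and then to Sema4c (0.64). The nearest genes were Tub (0.58) and Hal (0.68) for Tdrd1, Adamts20 (0.58) and Sytl5 (0.60) for Tdrd9, and Cpxm1 (0.41) and Plekha6 (0.48) for Asz1. Asz1 was itself near the limit of detection, so the added 1 CPM flattens its profile and these distances are no likeness in fold change. Cpxm1 had 19.2 CPM in wild type and 31.6 CPM in I53A of set 1. In set 2 it had 11.7 CPM in wild type and 13.0 CPM under the QKO label. The 12 libraries share their 4 groups, so these distances describe the group pattern more than single libraries.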

How the data were processed

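RNA-seq counts of 12 libraries were analysed. Extraction used TRIzol and libraries a TruSeq procedure, per the labels' protocols. The authors deposited whole-number counts per gene, made per the file headers with featureCounts version 1.6.3 for fragments per gene name, with GENCODE gene models of NCBIM37 (mm9), with no option for strand, multiple alignments or overlapping genes. Per the submitters' processing notes, HISAT2, Bowtie2, SAMtools and DESeq2 were among the tools, with the builds mm9 and dm6. Headers name TopHat and unique alignments for set 1 only, and which aligner each set had is not settled. The gene lengths deposited by the authors in the same tables were used for levels per kilobase.

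Counts were normalised by TMM, filtered with filterByExpr (minimum count 10) and tested by quasi-likelihood in edgeR (version 4.0.16, R version 4.3.3), two-sided, with Benjamini-Hochberg adjustment over all genes tested and a threshold of 0.05. Each set was fitted on its 6 libraries, and the difference between effects on all 12. Levels are CPM with TMM over 12 libraries. DESeq2 version 1.42.0, other scalings and filters, a replicate block, and leaving out replicates were the alternatives. The fits were tested on simulated data. All pairs of replicates differed beyond sampling noise, so each library counts once. Depth sets the precision: intervals and floors cover counting error only, as counts carry no molecular identifiers.

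Replicate numbers were checked for pairing by correlating deviations from group means over 12327 genes. In set 1 same-numbered libraries correlated at 0.459, 0.521 and 0.706. Replicates 1 and 2 correlated at 0.386 and 0.426 across numbers. The check thus sets replicate 3 apart but hardly tells replicate 1 from replicate 2. In set 2 same-numbered libraries correlated at 0.044, -0.004 and 0.125. The main fits held no replicate block, so their p-values take no account of pairing, and the block was run as an alternative.

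The genes and lists were chosen with earlier results of these data known. Named genes are the 8 genes in each comparison, up to 4 called genes of each list with the largest change, list genes at 0 in a whole group, the targeted genes, and for each of the 8 the 2 genes with the most similar profile, leaving out provisional names. Motifs were searched in RefSeq promoter windows of GRCm38.p6, a build kept apart from the mm9 coordinates. Libraries of chromatin assays were left out, as the genes, taken by name, were followed in the RNA counts only.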

Additional observations from a re-analysis of the deposited data

Results flagged for a closer look

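For 6 of the 8 genes, the effect of I53A against its wild type differed from the effect of the QKO label against its own wild type, in edgeR's quasi-likelihood test of the difference over 12 libraries. The difference was 2.45 ± 0.13 (SE) on the log2 scale for Mael, whose effects were 2.95 and 0.52. Ddx4 differed by 2.00 ± 0.12 and was the gene with opposite effects, 1.48 and -0.49. Every I53A library was above every wild type library of set 1 for Ddx4, and every library labelled QKO was below every wild type library of set 2. Tdrkh differed by 1.96 ± 0.16, with effects of 2.50 and 0.56. The other three were Tdrd1 at 1.27 ± 0.23 (1.67 and 0.43), Piwil2 at 1.17 ± 0.10 (1.46 and 0.31) and Mov10l1 at 1.10 ± 0.10 (1.41 and 0.33). Adjusted p-values ran from 6.47e-09 for Mael to 0.00058 for Tdrd1 in edgeR, and over the 17 alternatives all 6 genes were called in the same direction. A difference in either direction was called for 36.1% of all genes tested. With 3 libraries in a group, no outlier test of single values was made.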

How the results depend on the processing

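The direction of each of the 8 genes held in each alternative run. In set 1, 7 to 8 genes were called higher over 13 alternatives, and Asz1 was the one lost. In set 2, 5 to 6 were called higher and 1 lower over 12 alternatives, with Tdrd1 or Tdrd9 lost. Of the 15439 genes tested in the main fit of set 2, 28.7% were called higher and 29.0% lower. Over the 12 alternatives, 3495 to 4883 genes were called higher and 3330 to 4619 lower. Among the 15536 genes tested in set 1, 2808 (18.1%) were called higher and 2704 (17.4%) lower. The replicate block gave 4371 higher and 4427 lower, and replicates 1 and 2 alone gave 4197 higher and 4146 lower. The block changed no call among the 8 genes in either set or in the difference between effects. Leaving out 1 library at a time gave 1996 to 3034 genes higher and 1832 to 2883 lower in set 1. Scaling by library totals multiplied the levels of the 8 genes by 0.932 to 1.06, and 20 of 32 levels moved by less than 1 SD. No scaling moved the median of all genes by over 0.1 on the log2 scale. Depth limits Asz1 and Tdrd9 most, with 31 and 60 counts over the 3 wild type libraries of set 1.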

Other observations

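The wild type groups of the sets also differed for other genes of the pathway. These values are descriptions, named after they were seen. Dnmt3l, the cofactor of DNA methylation in the germline, had 381 ± 3.96 CPM in wild type of set 1 and 38.9 ± 2.73 CPM in wild type of set 2 (SD, n = 3). Morc1, a transposon silencing ATPase, had 189 ± 6.93 and 40.7 ± 1.43 CPM, and Gtsf1l 61.8 ± 7.64 and 8.24 ± 0.525 CPM. The germline repressor genes Hdac1 (7.75 ± 2.75 and 229 ± 11.1 CPM) and Cbx3 (8.34 ± 1.47 and 176 ± 13.4 CPM) were far lower in set 1. In libraries labelled QKO, Dnmt3l and Morc1 (126 and 77.2 CPM) were above their own wild type and below wild type of set 1. Whether the naming of the alignments, which differs between the sets, bears on these levels was not tested.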
